A study of Mus musculus with 18 samples.

Results

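The genes Piezo1, Piezo2, Trpv2 and Trpv4 encode cation channels studied as sensors of stretch, pressure or swelling, and their RNA was followed through bulk, single-cell, single-nucleus and spatial data of the mouse urinary bladder. These 4 members were taken by name out of the 29214 genes of the bulk table, and each was listed in every droplet and spatial table. The study holds 18 samples in 11 groups, all from C57BL/6 mice, and the labels name no allele, transgene or treatment. Most libraries are pools of several animals, so an animal's own level cannot be read from them. Bulk RNA came from 12-month females, 3 per library, as intact bladder (3 libraries) or as bladder dissociated into cells (3 libraries). Whole-bladder cells were sequenced from pools of 3 males at 22 months, 3 males at 3 months, and 2 animals of each sex at 12 months (2 libraries) or 24 months (1 library). Single libraries were made of nuclei (12 months, 2 of each sex), of detrusor, the muscular wall, alone (14 months, 3 females) and of a detrusor-enriched preparation (14 months, 2 of each sex). Frozen sections for Visium, which captures RNA on a grid of barcoded spots, were labelled with 4 males and an age of 22 months (2 sections) or 14 months (2 sections). Nothing in the labels says whether libraries of a group came from separate animals, so the p-values below measure the spread between libraries, which may be technical.

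Piezo channels are opened directly by tension in the cell membrane. Piezo2 is best known for touch and body-position sense in sensory neurons and, in the bladder, for the sense of filling, while Piezo1 is widely studied as the sensor of blood flow in endothelium. Trpv4 and Trpv2 belong to the vanilloid branch of the TRP channels; Trpv4 answers swelling, warmth and lipid messengers and is linked to calcium entry and ATP release in stretched urothelium, the lining epithelium, and Trpv2 has been described in muscle and immune cells. The cell bodies of the bladder's sensory neurons lie outside the organ, so their transcripts are for the most part not sampled in bladder RNA.

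The sequence before the start site is shown for the members that have an entry: Piezo1 and Trpv4 resemble each other there in base composition, and Trpv2 differs from both. RefSeq on GRCm38.p6 (the deposited files use mm10, the same build) places Piezo1 on chromosome 8 from 122481698 to 122551329, Trpv2 on chromosome 11 from 62574486 to 62600305 and Trpv4 on chromosome 5 from 114622152 to 114658435. The 250 bases before a listed start follow for Piezo1 (chr8:122551330-122551579, minus strand), for the first of 3 listed starts of Trpv2 (chr11:62574236-62574485, plus strand) and for Trpv4 (chr5:114658422-114658671, minus strand), each read 5′ to 3′ on the gene's strand. The listed start of Trpv4 lies inside the gene as located, so the last bases of its window overlap the gene. Piezo2 has no entry in the promoter table. Capitals mark matches on either strand. The motifs searched were the GC box (GGGCGG), which Sp factors bind. The others were a TEAD motif (GGAATG), bound by partners of Yap. The TATA box was searched as TATAAA and the serum response motif as the CArG box by name; none of the motifs overlaps another here.
Piezo1: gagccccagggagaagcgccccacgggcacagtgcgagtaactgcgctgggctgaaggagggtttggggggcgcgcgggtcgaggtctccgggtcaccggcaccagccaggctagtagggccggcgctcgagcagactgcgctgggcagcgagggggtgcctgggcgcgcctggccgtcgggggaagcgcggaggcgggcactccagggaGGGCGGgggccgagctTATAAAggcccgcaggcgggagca
Trpv2: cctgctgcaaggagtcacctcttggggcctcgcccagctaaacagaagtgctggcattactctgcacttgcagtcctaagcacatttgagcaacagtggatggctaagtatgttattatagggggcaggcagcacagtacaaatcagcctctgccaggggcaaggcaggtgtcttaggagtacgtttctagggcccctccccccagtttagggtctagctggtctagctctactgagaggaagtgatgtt
Trpv4: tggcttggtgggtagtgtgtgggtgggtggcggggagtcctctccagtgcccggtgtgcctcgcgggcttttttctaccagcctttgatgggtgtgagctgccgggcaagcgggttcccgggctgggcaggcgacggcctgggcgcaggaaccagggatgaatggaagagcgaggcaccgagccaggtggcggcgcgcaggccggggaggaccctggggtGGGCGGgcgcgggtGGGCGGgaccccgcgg
The Piezo1 window holds 1 GC box and 1 TATAAA, the Trpv4 window 2 GC boxes, and the printed Trpv2 window none of the 4 motifs. Of the other Trpv2 starts, the second has no match and the third (chr11:62575377-62575626) has 1 GGAATG and 5 CpG. Among 32851 promoters of the same length, 32.7% hold the GC box, 12.6% GGAATG, 12.4% TATAAA and 1.47% the CArG box. Piezo1 and Trpv4 start in CpG-rich sequence, with 26 and 22 CpG and a GC content of 74.0% and 72.0%. Trpv2 has 2 CpG and a GC content of 53.2%, against a median of 6 CpG (quartiles 2 and 16) and 52.4% over all promoters. These matches describe letters only.

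The bulk libraries held 23083752 to 68760791 counted reads. Libraries of cells and nuclei kept 949 to 8420 barcodes, and sections 937 to 1317 spots. Median unique molecular identifiers (UMIs, 1 per captured RNA molecule) per barcode lay between 1126.5 and 15042 in cells and nuclei as deposited. The male whole-bladder libraries stand apart: their tables list 27775 genes against 27998 in the mixed-sex ones. They hold barcodes of 14 rather than 16 bases and have no mitochondrial counts. Their tables, of 9080 and 6378 barcodes, share 64, and whether that is more than their sizes give was not tested. In these libraries sex, table and depth cannot be told apart. Cell classes are called "like" the type whose marker genes they carry; levels are in CPM, counts scaled to a total of 1e+06 per library or class, and are not compared between genes.

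In bulk RNA, dissociation moved 3 of the 4 members. Piezo1 and Piezo2 were higher in dissociated bladder than in intact tissue, Trpv2 fell, and Trpv4 did not pass the test, a result that 3 alternative settings turned. Across all genes 59.2% of 16538 passed (27.9% higher and 31.3% lower), so a call in this comparison is close to the usual outcome for a gene.

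Piezo1 was at 108, 108 and 123 CPM in the intact libraries 1, 2 and 3 and at 179, 153 and 188 CPM in the dissociated libraries 1, 2 and 3. Every dissociated library lay above every intact one, and the difference was 0.73 on the log2 scale (SE 0.11, edgeR adjusted p = 0.000924). Piezo2, the least counted member in intact tissue, was at 7.15, 10.1 and 13.7 CPM there and at 22.3, 33.1 and 18.4 CPM after dissociation. The groups again did not overlap, with a log2 difference of 1.36 (SE 0.27, edgeR adjusted p = 0.00365) on raw counts of 165 to 895 reads. Trpv2 was steady in intact tissue at 63.2, 66.0 and 62.9 CPM and lay at 17.3, 23.5 and 19.3 CPM in dissociated bladder. It fell by 1.57 on the log2 scale, a 2.97-fold drop (SE 0.11, edgeR adjusted p = 2.06e-05). Trpv4 was at 104, 84.9 and 105 CPM in intact tissue and at 106, 101 and 148 CPM after dissociation. Its groups overlapped, and the difference of 0.38 (SE 0.17, edgeR adjusted p = 0.0866) became a call without dissociated library 2 (0.52, adjusted p = 0.0328), with DESeq2 (0.43, adjusted p = 0.0431) or with the replicate number as a block (0.36, adjusted p = 0.0279). Non-overlap of the groups, as in 3 members, was seen in 67.9% of all genes.

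**Figure D1:**
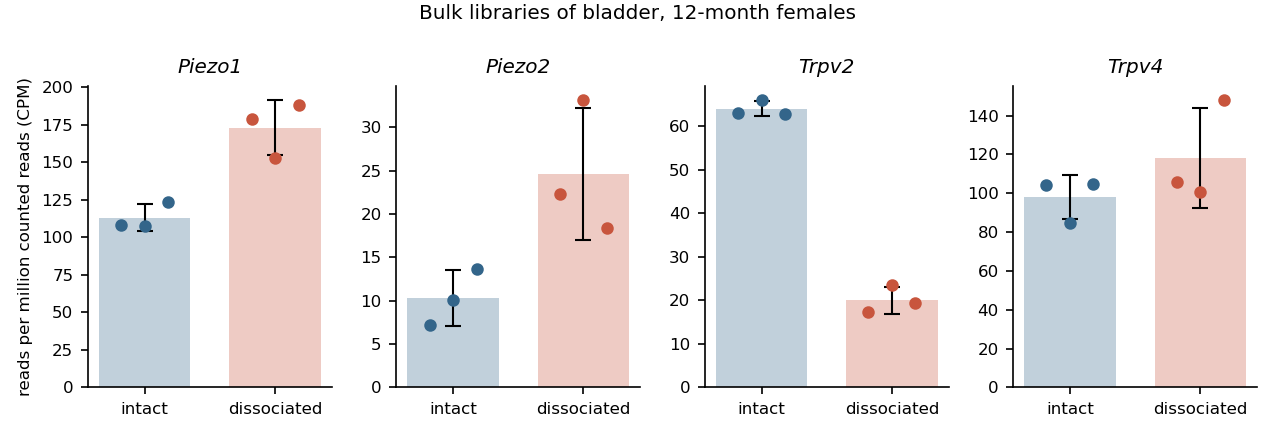
Each panel plots a member's level in CPM for the 3 intact and 3 dissociated bulk libraries (points), with the group mean (bar, axis from 0) and SD (error bar). Trpv2 lies at 62.9 to 66.0 CPM in intact tissue and at 17.3 to 23.5 CPM after dissociation, while the Trpv4 groups overlap.

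Marker genes of several cell types moved with dissociation as well. All 10 smooth muscle markers fell, and their summed level went from 43980 to 45880 CPM in intact libraries to 2427 to 3627 CPM in dissociated ones. All 9 fibroblast markers, 8 of 10 blood endothelial markers and 5 of 5 tested lymphatic markers rose; their sums went from 12280 to 15030 up to 22140 to 32910 CPM, from at most 568.3 up to at least 779 CPM, and from 119 to 130 up to 194 to 247 CPM. All 9 macrophage or monocyte markers rose, from at most 948 to at least 1013 CPM in sum. Of 7 tested dendritic markers 3 rose, and the sum went from at most 84.1 to at least 90.9 CPM. Of 5 tested mesothelial markers 1 fell (list median 0.14), and the sum went from 354 to 431 CPM down to 194 to 302 CPM. Of 6 tested T or NK markers 1 rose and 0 fell with overlapping sums, and of 5 B cell markers none passed in either direction. Schwann markers had 1 rise and 4 falls of 7 with overlapping sums, whereas 4 of 5 tested neuron markers rose and 1 fell, with sums from 269 to 284 CPM down to 137 to 172 CPM. All 6 adipocyte markers fell, all 5 erythroid markers and 3 of 4 tested neutrophil markers rose, and of the plasma, mast and skeletal muscle lists at most 2 markers passed in a direction. Of 8 pericyte markers 2 rose and 4 fell. The urothelial lists went both ways: of 10 urothelial markers 4 rose and 4 fell with overlapping sums, of 5 tested basal markers 3 rose and 1 fell, and of 6 superficial markers 5 fell. The part of these shifts in the members' differences was not tested, and in bulk RNA fewer cells of a type and less RNA per cell cannot be told apart.

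Other genes of the field gave a mixed picture beside the median log2 difference of -0.03 over all genes tested, of which 27.9% rose and 31.3% fell. Among 29 further channels proposed to answer stretch, swelling or touch, 24 were tested, 9 rose and 6 fell, with a median of 0.09. Trpc6, a channel coupled to lipid signalling, rose by 1.04, Kcnk2 (the potassium channel TREK-1) by 0.75 and Pkd2 (polycystin-2) by 0.73. The epithelial sodium channel subunit Scnn1g fell by 1.91, Kcnk4 (TRAAK) by 1.89 and the acid-sensing channel Asic1 by 1.10, all on the log2 scale. Of 17 other TRP channels 9 were tested; Trpm5 (2.57) and Mcoln2 (1.43) rose, Trpc4 (-1.20) fell and the median was 0.46. Trpv1, Trpa1 and Trpm8, the classic heat, irritant and cold channels of sensory neurons, were below the count filter. Of 15 tested proteins reported to bind or tune Piezo or Trpv4 channels, 3 rose and 5 fell, with a median of 0.10. Those that rose were Anxa2 (1.02), the Piezo-binding protein family member Mdfi (0.93) and Tmem120a (0.79); the largest falls were in Cav1, the caveolar coat protein (-1.08), Atp2a2, the calcium pump SERCA2 (-0.89), and the ubiquitin ligase Nedd4l (-0.75). Of 12 genes listed as downstream, for ATP release and as calcium-dependent or Yap targets, 5 rose and 0 fell, with a median of 0.36. The rises were led by the transcription factors Klf4 (4.14) and Klf2 (2.28) and the matrix protein Cyr61 (3.66). A link of these rises to the channels was not tested. The highest Klf4 values were in the dissociated libraries, 1180 CPM on average against 72.6 CPM in intact tissue (SD 58.3 and 15.5, n = 3 each).

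Within single cells, each member had its own set of cell classes. Piezo1 was highest in blood and lymphatic endothelial-like cells, and Piezo2 in lymphatic endothelial-like cells of the detrusor libraries. Among the cell libraries, high Piezo2 in mesothelial-like cells was seen in the detrusor-only library alone. Trpv2 was highest in T or NK-like, pericyte-like, dendritic-like and smooth muscle-like cells. Trpv4 was highest in urothelial-like cells, and macrophage or monocyte-like cells of the detrusor-only library reached the urothelial-like range. Summed counts of 4 classes could be tested over the 5 whole-bladder libraries, giving 6 pairs of classes. Dendritic-like cells entered from 4 of these libraries and macrophage or monocyte-like cells from 3. Neither had a Piezo2 UMI there, so Piezo2 could not pass between them. Of the 24 member-by-pair tests 16 passed, against 46.1% of all gene-by-pair tests (12.8 to 63.9% by pair). The share of all genes called was 63.9% for fibroblast-like against urothelial-like cells, 53.2% for dendritic-like and 49.3% for macrophage or monocyte-like against urothelial-like cells, 53.6% for dendritic-like and 44.0% for macrophage or monocyte-like against fibroblast-like cells, and 12.8% between the last-named immune classes. Trpv2 was called in 6 of 6 pairs, Trpv4 in 5, Piezo2 in 3 and Piezo1 in 2. With the detrusor libraries added, a choice made after seeing the data, 7 classes and 21 pairs could be tested, and 56 of 84 member-by-pair tests passed against 41.8% of all (18.8 to 61.7% by pair). Scaling by other size factors moved the median of all genes by up to 0.21 (4 classes) or 0.47 (7 classes) on the log2 scale, so smaller differences depend on the scaling.

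**Figure D2:**
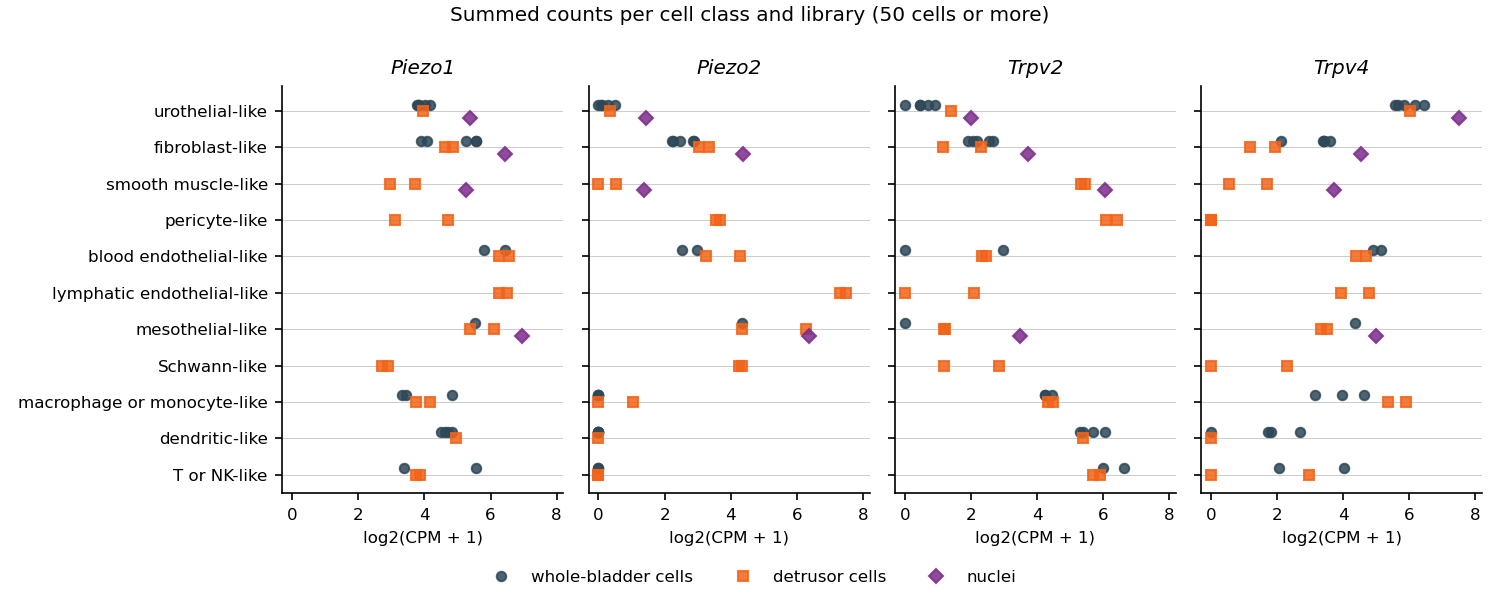
Each panel plots a member's level as log2(CPM + 1) in the summed counts of a cell class, 1 point per library with 50 or more cells of the class, in whole-bladder cells (circles), detrusor cells (squares) and nuclei (diamonds). Points at 0 are classes without a count, such as Piezo2 in dendritic-like cells and Trpv4 in pericyte-like cells.

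Piezo1 was counted in every class. Blood endothelial-like cells held 55.3 and 86.3 CPM in the 22-month and 3-month whole-bladder libraries, 76.2 CPM in detrusor only and 93.3 CPM in the detrusor-enriched library. Lymphatic endothelial-like cells, found in 50 or more cells only in the detrusor libraries, held 75.8 and 89.7 CPM, within the blood endothelial range. Piezo1 in mesothelial-like cells, the covering of the organ, came next at 40.9 to 67.4 CPM over 3 libraries. A lower band followed, with dendritic-like cells at 21.9 to 30.3 CPM, fibroblast-like cells at 14.0 to 46.3 CPM, T or NK-like cells at 9.42 to 45.8 CPM, urothelial-like cells at 12.8 to 17.1 CPM and macrophage or monocyte-like cells at 8.89 to 27.7 CPM. Smooth muscle-like cells had 6.75 and 12.1 CPM, pericyte-like cells 7.55 and 25.04 CPM, and Schwann-like cells, the glia of the nerves, 5.51 and 6.49 CPM. In the 7-class fit, blood endothelial-like cells were above each of the 6 other classes, by 0.72 (mesothelial, edgeR adjusted p = 0.0404) to 2.27 (T or NK, adjusted p = 1.95e-06) on the log2 scale. The T or NK-like level rests on 18 UMIs in 517 cells of 4 libraries. Of all genes, 32.9% passed in the mesothelial pair, 35.5% in the T or NK pair, 40.1% in the macrophage or monocyte pair, 40.7% in the fibroblast pair, 41.1% in the dendritic pair and 48.7% in the urothelial pair. The mesothelial difference is weak, since it missed the threshold in 8 of the alternative settings, among them the fit without the detrusor-only library (0.52, adjusted p = 0.347). Mesothelial-like and dendritic-like cells, neighbours in the order, were not told apart (log2 0.52 higher in mesothelial-like, SE 0.29, edgeR adjusted p = 0.159, with 43.9% of all genes called in that pair), nor were macrophage or monocyte-like and urothelial-like cells (0.15, SE 0.24, adjusted p = 0.632).

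Piezo1 in fibroblast-like cells split by library. The mixed-sex whole-bladder libraries had 36.9, 45.8 and 46.3 CPM, and the male ones of 22 and 3 months 16.0 and 14.0 CPM, with the detrusor libraries between them at 23.7 and 27.9 CPM. Over the 5 whole-bladder libraries fibroblast-like cells exceeded urothelial-like cells by 0.59 (SE 0.19, edgeR adjusted p = 0.0122). That call was lost without the first 12-month library (0.53, adjusted p = 0.0506) or without the 24-month library (0.54, adjusted p = 0.0832).

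Piezo2 showed the widest contrast between classes. In lymphatic endothelial-like cells it reached 177 CPM in detrusor only and 157 CPM in the enriched library, with a UMI in 63.6% and 48.2% of 118 and 112 cells (median 6911 and 5822 UMIs per cell). A lymphatic endothelial-like cluster of 46 cells in the 22-month library, under the class minimum and with a median of 1251 UMIs, held Piezo2 at 15.4 CPM (1 UMI, interval 0.39 to 85.9), below both. No Piezo2 UMI was found in 883 dendritic-like cells of 5 libraries (medians 2327 to 7396 UMIs), which allows a UMI in up to 0.34% of cells and a level of up to 0.728 CPM, or in 517 T or NK-like cells of 4 libraries, which allows up to 0.58% and 2.62 CPM. The shares limit cells with a UMI, not cells that hold the transcript. Within the enriched library, which holds all 3 classes, the 157 CPM of lymphatic endothelial-like cells stood beside limits of 3.25 CPM in 105 dendritic-like and 10.2 CPM in 66 T or NK-like cells. Intervals and limits in these data cover counting error and nothing else.

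Mesothelial-like cells carried Piezo2 unevenly, at 76.9 CPM in detrusor only (177 UMIs in 140 cells), 19.5 CPM in the enriched library and 19.3 CPM in the 22-month whole-bladder library (3 UMIs). In the 7-class fit they exceeded fibroblast-like cells by 2.06 (SE 0.51, edgeR adjusted p = 0.0033, where 24.9% of all genes passed) and blood endothelial-like cells by 1.70 on the log2 scale (the reverse contrast being -1.70, SE 0.54, edgeR adjusted p = 0.0159). Both calls rested on the detrusor-only library: without it the contrasts were -0.96 (fibroblast minus mesothelial, adjusted p = 0.413) and -0.42 (blood endothelial minus mesothelial, adjusted p = 0.759). Mesothelial-like over urothelial-like cells, at 7.05 (SE 0.68, edgeR adjusted p = 4.31e-09), was called in each fit without 1 library. The urothelial-like side rests on 9 Piezo2 UMIs in 8983 cells, so the size of that difference is uncertain. Of the 195 mesothelial-like UMIs, 177 came from the detrusor-only library, where no cluster was named urothelial-like.

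Piezo2 levels under those of lymphatic endothelial-like cells filled the connective tissue and vessel classes. Mesothelial-like cells outside the detrusor-only library, at 19.5 and 19.3 CPM, were level with Schwann-like cells. Schwann-like cells had 18.1 and 19.5 CPM, blood endothelial-like cells 4.79 to 18.3 CPM, pericyte-like cells 10.8 and 11.7 CPM and fibroblast-like cells 3.65 to 9.15 CPM over 7 libraries. Blood endothelial-like and fibroblast-like cells did not differ beyond their spread (0.36, SE 0.49, edgeR adjusted p = 0.614). Fibroblast-like cells exceeded urothelial-like cells by 5.13 in the 5 whole-bladder libraries (SE 0.63, edgeR adjusted p = 4.44e-06). The urothelial-like side rests on 6 Piezo2 UMIs in 7367 cells of these libraries, so the size of that difference is uncertain. Without either 12-month library Piezo2 fell under the count filter and this pair could not be tested. Urothelial-like cells gave 9 Piezo2 UMIs in 8983 cells, 0.10% of cells, and smooth muscle-like cells 2 UMIs in 1 of 540 cells. Of the 9 UMIs, 3 came from a low-depth cluster of 1218 cells in the detrusor-enriched library, which had the plasma cell list at 25870 CPM beside the urothelial list at 7410 CPM. Both shares lie under the limits that the immune classes without a UMI allow. A small fibroblast-like cluster of the detrusor-only library, led by Apod, Myoc and Tenm2 and singled out after its value was seen, held Piezo2 at 105 CPM (95% exact Poisson interval 75.8 to 142) with a UMI in 54.7% of its 53 cells.

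Trpv2 ran through muscle, mural and immune classes. T or NK-like cells had 51.1 to 99.3 CPM in 4 libraries, pericyte-like cells, which wrap small vessels, 66.8 and 85.1 CPM, dendritic-like cells 38.3 to 66.2 CPM in 5 libraries, and smooth muscle-like cells 39.1 and 43.0 CPM. Macrophage or monocyte-like cells were lower and alike in 5 libraries, at 17.8 to 21.4 CPM. Below them lay fibroblast-like (1.23 to 5.30 CPM), blood endothelial-like (0 to 6.92 CPM), Schwann-like (1.30 and 6.29 CPM), mesothelial-like (0 to 1.30 CPM) and urothelial-like cells (0 to 1.63 CPM). The highest urothelial-like value is that of the detrusor-enriched library, where the low-depth cluster of 1218 cells gave 7 of 18 Trpv2 UMIs. Trpv2 in dendritic-like cells exceeded urothelial-like cells by 6.80 on the log2 scale (SE 0.34, edgeR adjusted p = 2.32e-12) over the whole-bladder libraries. Dendritic-like over macrophage or monocyte-like cells (1.52, SE 0.34, adjusted p = 0.00425) missed the threshold without the 22-month male (adjusted p = 0.0506) or the 24-month library (adjusted p = 0.0509) but was called in the 7-library fit (1.30, adjusted p = 0.00391). These classes share markers in the detrusor libraries. In the enriched library the dendritic list was at 1054 CPM in dendritic-like and 784 CPM in macrophage or monocyte-like cells. The macrophage or monocyte list was at 6642 and 32540 CPM in the same order. In detrusor only no cluster was named dendritic-like, and macrophage or monocyte-like cells had the dendritic list at 1475 CPM. The T or NK-like class of the 22-month library also had the mast cell list at 1709 CPM, beside 7466 CPM for the T or NK list. The mast cell list in that class was at 115 CPM at 3 months, 12.4 CPM in detrusor only and 51.1 CPM in the enriched library. The part of mast cells in its Trpv2 level was not tested. In the 7-library fit T or NK-like and dendritic-like cells were not told apart (0.20, SE 0.36, edgeR adjusted p = 0.782). T or NK-like cells exceeded macrophage or monocyte-like cells by 1.10 (contrast -1.10, SE 0.36, edgeR adjusted p = 0.0165, 30.8% of all genes called) and fibroblast-like cells by 3.87 (contrast -3.87, adjusted p = 1.02e-10, 47.6% of all genes called). Dendritic-like over urothelial-like cells was 6.13 in the same fit, where 54.9% of all genes passed. Trpv2 UMIs were seen in 30.2% of pericyte-like and 32.8% of smooth muscle-like cells, against 0.568% of urothelial-like cells, at class medians of 5249.5 to 9965 and 604 to 17650.5 UMIs per cell. In the settings reported here no cluster of the whole-bladder libraries was named pericyte-like or smooth muscle-like, so neither class entered the tests. With a minimum of 1000 UMIs per cell, 1 cluster of 741 cells in the 3-month library took the smooth muscle name, but it had the fibroblast list at 32570 CPM and the smooth muscle list at 2303 CPM. The smooth muscle tests of that setting rest on it and are not used here. A 122-cell cluster of the 22-month library, led by Rgs5, Cox4i2 and Sncg and left unnamed because genes of another class lead it, had the smooth muscle list at 41140 and the pericyte list at 5448 CPM and held Trpv2 at 64.8 CPM (12 UMIs, interval 33.5 to 113).

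In each cell library with urothelial-like cells, Trpv4 was highest in that class among named classes of 50 or more cells. Urothelial-like cells held 46.6 and 56.8 CPM at 12 months, 49.6 CPM at 24 months, 71.5 CPM at 22 months and 86.4 CPM at 3 months, and 63.8 CPM in the detrusor-enriched library. Between 18.4 and 62.7% of these cells had a Trpv4 UMI, whereas 0 of 268 pericyte-like cells had any (medians 5249.5 and 6115 UMIs), which allows a UMI in up to 1.12% of cells and a level of up to 1.96 CPM. Within the enriched library, the only library with both classes, the limit in 94 pericyte-like cells was 5.01 CPM beside 63.8 CPM in urothelial-like cells. In the detrusor-enriched library 1218 of the 1616 urothelial-like cells formed a low-depth cluster with a median of 566 UMIs, which also held markers of other classes; the other 398 cells had 65.8 CPM. Urothelial-like cells exceeded fibroblast-like cells by 3.39 on the log2 scale (fibroblast minus urothelial -3.39, SE 0.27, edgeR adjusted p = 6.31e-09), dendritic-like cells by 4.31 (contrast -4.31, adjusted p = 8.42e-07) and macrophage or monocyte-like cells by 1.65 (contrast -1.65, adjusted p = 0.00145). Dendritic-like cells held 8 Trpv4 UMIs in 778 cells of the whole-bladder libraries, so the size of that difference is uncertain.

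A second set of Trpv4 counts lay outside the urothelium. Macrophage or monocyte-like cells had 58.7 CPM in detrusor only and 40.3 CPM in the enriched library, against 14.6, 23.7 and 7.91 CPM in the whole-bladder libraries of 22, 3 and 24 months. In detrusor only, where no cluster was named urothelial-like, 31.9% of macrophage or monocyte-like cells had a Trpv4 UMI and 1.07% of fibroblast-like cells did, at medians of 7854 and 8664 UMIs. The superficial urothelium markers summed to 0.35 CPM in those macrophage or monocyte-like cells. In the enriched library the superficial urothelium markers reached 2.18% of their urothelial-like level in macrophage or monocyte-like cells, and Trpv4 63.1%. The same pairs of values were 1.90% and 20.4% at 22 months, 1.87% and 27.4% at 3 months and 6.04% and 16.0% at 24 months, and the part of urothelial RNA in them was not tested. With both detrusor libraries in the fit, macrophage or monocyte-like and urothelial-like cells were no longer told apart (-0.75, SE 0.44, edgeR adjusted p = 0.158). Macrophage or monocyte-like over dendritic-like cells was called in both fits, at 2.66 in the whole-bladder libraries (contrast -2.66, SE 0.66, adjusted p = 0.0121; -2.37 and adjusted p = 0.18 without the 3-month library) and 4.14 with all 7 (contrast -4.14, adjusted p = 0.000338). The dendritic-like side rests on 8 Trpv4 UMIs in 883 cells, with 2 of 5 libraries at 0, so the size of these differences is uncertain. As given for Trpv2, these classes share markers in the detrusor libraries.

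Trpv4 in blood endothelial-like cells was 19.8 to 34.6 CPM and in lymphatic endothelial-like cells 14.3 and 26.6 CPM, with mesothelial-like cells at 9.08 to 19.3 CPM. In the 22-month male library Trpv4 in blood endothelial-like cells was 48.4% of the urothelial-like level, while the superficial urothelium markers were at 1.44% of theirs. The same values were 33.3% and 2.31% at 3 months and 38.8% and 2.87% in the detrusor-enriched library. Fibroblast-like cells had 3.31 to 11.2 CPM of Trpv4 in the whole-bladder libraries and 1.27 and 2.83 CPM in the detrusor ones. In the mixed-sex whole-bladder libraries that fibroblast-like level was 16.7 to 24.1% of the urothelial-like one, beside 6.80 to 8.84% for the superficial urothelium markers, and the part of RNA from burst urothelial cells in it was not tested. Dendritic-like cells had 0 to 5.47 CPM and smooth muscle-like cells 0.45 and 2.26 CPM.

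Uroplakin-rich and uroplakin-poor clusters, a split of urothelial-like cells by the plaque proteins of the surface layer, gave no called member with edgeR or DESeq2 at the clustering reported here. At a finer clustering (Leiden resolution 2) Trpv4 was called, at -0.21 (SE 0.07, edgeR adjusted p = 0.0426), where 2749 of all genes passed. The split is uneven: the superficial urothelium markers summed to 9332, 8943 and 9070 CPM in the rich and 3991, 3999 and 3521 CPM in the poor clusters of the mixed-sex libraries, but to 8813 against 7627 CPM at 22 months and 8339 against 8293 CPM at 3 months. In the 3-month library the basal markers were also higher in the rich cluster (8065 against 7629 CPM), so the names hold poorly in the male libraries. Trpv4 was at 44.8, 49.7, 45.8, 77.0 and 84.6 CPM in the rich and at 48.0, 64.4, 50.9, 69.5 and 88.1 CPM in the poor clusters of the 2 libraries of 12 months and those of 24, 22 and 3 months. It was lower in the rich cluster in 4 of 5 libraries, by 0.13 in the fit (contrast -0.13, SE 0.08, edgeR adjusted p = 0.379). Piezo1 had a contrast of -0.18 (SE 0.13, edgeR adjusted p = 0.415), and Piezo2 and Trpv2 were below the count filter. Of all genes 1.23% passed, 137 of 11130, with 2568 at an unadjusted p under 0.05 and 330 called by DESeq2; without the 3-month library 2516 genes passed, and Trpv4 had a contrast of -0.18 (edgeR adjusted p = 0.131).

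In the nuclei library the order of the classes within a gene was close to that in cells. Trpv4 stood at 181 CPM in urothelial-like nuclei (95% exact Poisson interval 164 to 199), with a UMI in 26.0% of 1259 nuclei, against 22.2 CPM in fibroblast-like and 12.3 CPM in smooth muscle-like nuclei. Trpv2 stood at 65.8 CPM in 1433 smooth muscle-like nuclei (interval 54.7 to 78.5), against 12.3 CPM in fibroblast-like and 2.99 CPM in urothelial-like nuclei. The smooth muscle list was at 50560, 11180 and 5293 CPM in the same order. The part of muscle RNA in the Trpv2 counts of the other classes was not tested. Piezo1 was at 122 CPM in mesothelial-like, 86.1 in fibroblast-like, 41.0 in urothelial-like and 36.9 CPM in smooth muscle-like nuclei. Piezo2 rested on few counts, 8 UMIs each in mesothelial-like (81.6 CPM, interval 35.2 to 161) and fibroblast-like nuclei (19.7 CPM), 4 in urothelial-like and 3 in smooth muscle-like nuclei. Superficial urothelium markers in fibroblast-like and smooth muscle-like nuclei were at 20.6% and 16.4% of their urothelial-like level, beside 12.2% and 6.80% for Trpv4. In mesothelial-like nuclei the values were 32.4% and 16.9%. The part of urothelial RNA in these Trpv4 counts was not tested.

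Nuclei have 1 library and no spread of their own, so a fit of nuclei against whole-bladder cells rests wholly on the assumption that nuclei vary like cell libraries. Under that assumption edgeR and DESeq2 called 0 of the members in urothelial-like and fibroblast-like classes, where 35.1% and 21.9% of all genes passed. No test among these 7 reached an unadjusted p under 0.05, and Piezo2 in urothelial-like cells was below the count filter. Trpv4 in urothelial-like cells differed by 0.39 (SE 0.21, edgeR adjusted p = 0.19), although its CPM in nuclei lay above all 5 cell libraries. The fit scales libraries by the bulk of their genes, not by total UMIs, and the part of this scaling in the gap was not tested.

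The sections placed the members in the wall. Spots were clustered without the members, and regions were set by marker lists: muscle-raised regions have the smooth muscle list at least 25% above the section's level and the urothelial list below it. Urothelium-raised regions have the urothelial list at least 25% above and the smooth muscle list below, a rule chosen after seeing the data. A spot holds several cells, so a region's level mixes classes. All 4 members were called between these regions, against 76.2% of 13667 genes (38.6% higher and 37.7% lower in urothelium-raised regions). Piezo1, Piezo2 and Trpv2 were lower in urothelium-raised regions and Trpv4 was higher.

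Piezo1 was at 94.97 and 99.7 CPM in the muscle-raised regions of the 14-month sections 1 and 2 and at 92.1 and 111 CPM in those of the 22-month sections 1 and 2. In the urothelium-raised regions it was at 49.9, 45.0, 40.4 and 42.4 CPM in the same order, a log2 difference of -1.26 (SE 0.09, edgeR adjusted p = 1.62e-07). Trpv2 went from 81.8, 81.5, 81.8 and 114 CPM in muscle-raised to 7.54, 3.95, 5.31 and 6.43 CPM in urothelium-raised regions. That is the widest difference among the members, at -4.05 (SE 0.13, edgeR adjusted p = 1.12e-09). Trpv4 ran the other way, from 80.4, 54.7, 46.7 and 44.9 CPM in muscle-raised to 160, 133, 99.5 and 88.4 CPM in urothelium-raised regions (0.99, SE 0.08, edgeR adjusted p = 7.52e-07). In every section and for each of these 3 genes the regions differed the same way.

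Piezo2 was near the counting limit in the sections, with 43 to 73 UMIs per section. Its muscle-raised regions had 2.80, 2.69, 3.47 and 2.10 CPM and its urothelium-raised ones 0.973, 1.92, 1.48 and 1.91 CPM, a difference of -0.92 (SE 0.29, edgeR adjusted p = 0.0136). The call was lost without the first 22-month section (-0.77, adjusted p = 0.083), without the first 14-month section (-0.74, adjusted p = 0.0626), and when the mesothelium-raised regions were left out of the muscle-raised ones (-0.70, adjusted p = 0.0512). One such region, led by C3, Slpi and Msln in the first 22-month section, held Piezo2 at 30.3 CPM (14 UMIs, interval 16.6 to 50.9) and the other, in the second 14-month section, at 6.64 CPM (6 UMIs).

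**Figure D3:**
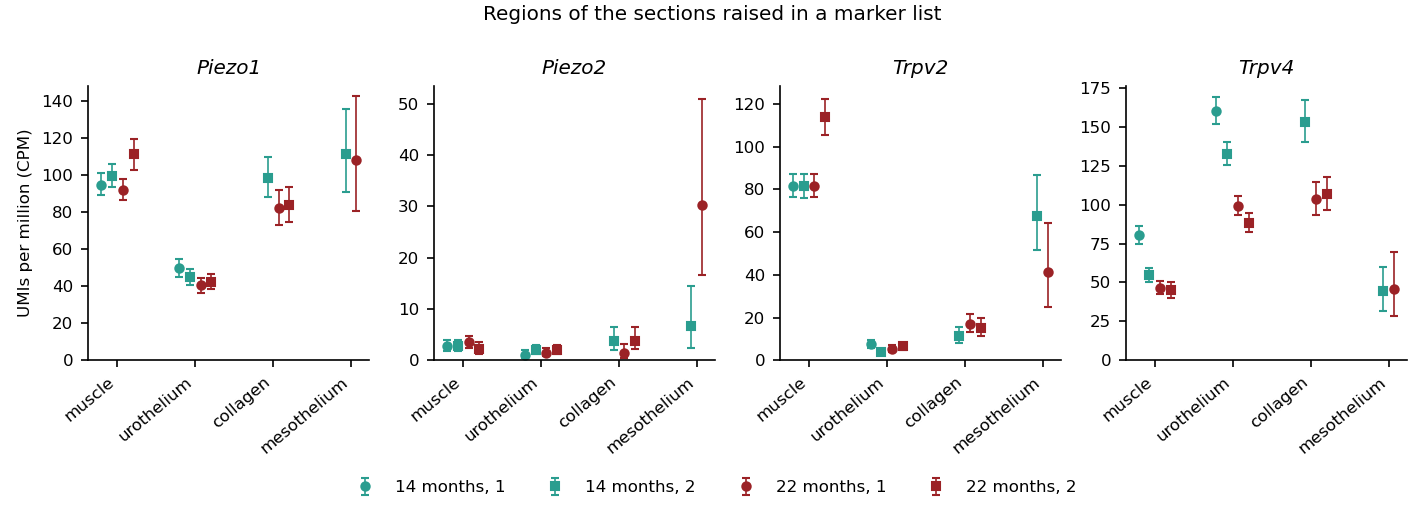
Each panel plots a member's level in CPM in the regions of a section raised in a marker list, 1 point per section with its 95% exact Poisson interval; ages are given by colour and section number by shape. Trpv2 is at 81.5 to 114 CPM in the muscle-raised and at 3.95 to 7.54 CPM in the urothelium-raised regions. Trpv4 is higher in urothelium-raised than in muscle-raised regions of all 4 sections, and collagen-raised regions of 3 sections have 104 to 153 CPM.

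Collagen-raised regions, where the fibroblast list is at least 50% above the section's level with the smooth muscle list below the section's level and the mesothelial list under 3 times it (also chosen after seeing the data), were found in 3 sections and joined Piezo1 at 82.1 to 98.5 CPM with Trpv4 at 104 to 153 CPM and Trpv2 at 11.4 to 17.0 CPM. Urothelium-raised regions of the 4 sections had Trpv4 at 88.4 to 160 CPM, a range that holds these collagen-raised values. In the first 14-month section the region with the highest uroplakin level had Trpv4 at 167 CPM. Trpv4 peaked above it, at 226 CPM, in a region of 59 spots of the same section, led by Gsdmc2 and Car3. This region was neither collagen-raised nor urothelium-raised by the rules. Its urothelial list was at 1.23, its fibroblast list at 1.26 and its smooth muscle list at 0.136 times the section's level. Over the 37 regions of 30 or more spots in 4 sections, the log2 level of Trpv2 followed the smooth muscle list (Pearson r = 0.96) and Trpv4 the urothelial list (r = 0.83). Piezo1 had r = 0.77 with the smooth muscle list and 0.73 with the fibroblast list, and Piezo2 had its highest r, 0.56, with the mesothelial list. Regions of 1 section share their library and differ in depth, so these are descriptions.

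**Figure D4:**
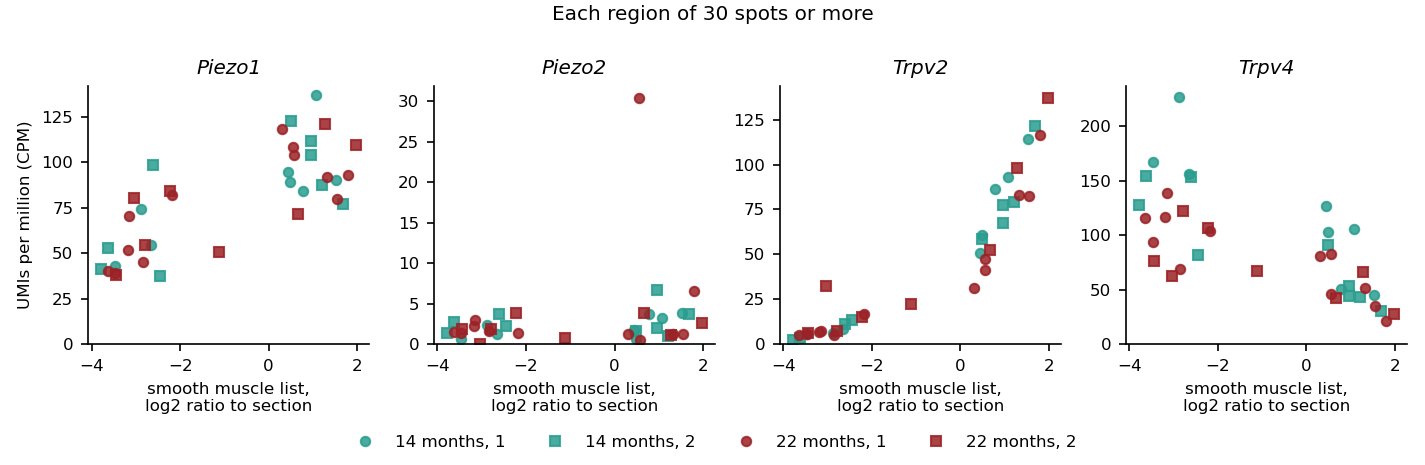
Each point is a region of 30 or more spots, with the log2 ratio of its summed smooth muscle marker level to that of the whole section on the x axis and the member's level in CPM on the y axis; colour gives age and shape the section number. Trpv2 climbs with the smooth muscle list and Trpv4 declines, while a single Piezo2 region stands at 30.3 CPM.

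Levels of Piezo1 in muscle differed between preparations. Muscle-raised regions had 92.1 to 111 CPM and smooth muscle-like nuclei 36.9 CPM, while smooth muscle-like cells had 6.75 and 12.1 CPM. For Trpv2 the same values were 81.5 to 114, 65.8, and 39.1 and 43.0 CPM. The preparations differ in chemistry, gene list and cell mixture, so these values are set side by side without a test.

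Age was tested in cells and in sections, and no member was called by edgeR or DESeq2 in either. In the sections of 22 against 14 months, 0 of 14995 genes passed with edgeR (2488 at an unadjusted p under 0.05) and 424 with DESeq2. Trpv4 over the whole section was at 129 and 102 CPM at 14 months and at 86.6 and 77.0 CPM at 22 months. The groups did not overlap and the difference was -0.44 (SE 0.14, edgeR unadjusted p = 0.0205, adjusted p = 0.23), with adjusted p from 0.152 to 0.556 over the alternatives. Trpv4 was also lower in both 22-month sections within the muscle-raised and within the urothelium-raised regions, by the values above, and these were not tested by age. Piezo1 (-0.05, SE 0.08), Piezo2 (0.05, SE 0.27) and Trpv2 (-0.09, SE 0.13) had adjusted p of 0.796, 0.939 and 0.78 in the same edgeR fit.

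Among whole-bladder cells of 22 and 24 months against 3 and 12 months, edgeR called 0 genes in urothelial-like cells (345 at an unadjusted p under 0.05, 3 called by DESeq2) and 0 in fibroblast-like cells (245, and 4 called by DESeq2). Trpv4 differed by -0.11 (SE 0.15, adjusted p = 0.999) in urothelial-like cells, in a fit with the sex mix as a term. In fibroblast-like cells it differed by -0.82 (SE 0.39, edgeR adjusted p = 1), a value that shrank to -0.17 without the 22-month library and to -0.18 without the 3-month library. Piezo2 and Trpv2 in urothelial-like cells were below the count filter. The male libraries are of 3 and 22 months, so within the male pair age has 1 library a group.

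Across 46 sums of class and library, covering 11 classes and 8 droplet libraries, other genes ran closely with each member. The nearest to Piezo2 were Thsd7a (Pearson r = 0.886), Prrg3 (0.863) and Cd109 (0.843), and the nearest to Trpv2 were Rgs2 (0.881), Adgre5 (0.849) and Rbm38 (0.792), out of 14211 genes. Trpv4 ran closely with Dram2 (0.763) and Abcc3 (0.753), and Piezo1 was nearest to Cables2 (0.763), Ablim3 (0.735) and Rph3al (0.724). Among the members, Piezo1 and Piezo2 had an r of 0.549 and Trpv2 and Trpv4 of -0.563. Sums of 1 library share its depth and free RNA, so these are descriptions.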

How the data were processed

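Deposited tables of the authors hold whole-number counts: reads per gene in bulk, UMIs per gene and barcode in cells, nuclei and spots. The submitters' processing notes name bcl2fastq, Cell Ranger, Space Ranger, Subread, featureCounts and mm10, without roles or versions. Barcodes under 500 UMIs or above 20% mitochondrial UMIs were dropped, doublets removed by simulated score (0.8% per 1000 barcodes) and cells clustered per library (Leiden, resolution 1) without the members. Clusters were named from marker lists. A rule that leaves clusters with marker sets of unrelated classes unnamed was set after seeing the clusters. Under it the low-depth cluster of 1218 cells in the detrusor-enriched library kept the urothelial-like name. Counts summed per library and class (50 cells or more), section, region or bulk library were compared with edgeR 4.0.16 (quasi-likelihood, TMM, filterByExpr, two-sided, Benjamini-Hochberg over all genes, threshold 0.05) in R 4.3.3, with library or section as a block between classes or regions; DESeq2 1.42.0 was an alternative. Only the bulk fit, the region fit and a fit of urothelial-like against fibroblast-like cells were tried on simulated counts. Those counts had preset dispersions and no library effect, so they say little about the other fits. Single libraries carry exact Poisson intervals and a limit of 3 counts at 0, without a test. Clustering used Python 3.11.15, scikit-learn 1.9.0 and leidenalg 0.10.2. The members and lists were chosen with earlier results of these data known. In bulk, up to 3 rises and 3 falls per list were named by size among called genes, and for each member the 3 genes with the highest Pearson r. A gene that this rule names is not reported here.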

Additional observations from a re-analysis of the deposited data

Results flagged for a closer look

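Levels were checked in 39 groups of 4 or 5 libraries for a sample far from the others, and 5 were found; chance gives about 1 in 20. Piezo1 in uroplakin-poor urothelial-like cells was highest in the second 12-month library, at 20.1 CPM against 12.6 to 14.7 CPM in the other 4. Piezo2 in uroplakin-poor cells was highest in the 22-month male library at 0.574 CPM, which is 2 UMIs, and in uroplakin-rich cells highest in the 3-month male library at 0.462 CPM, which is 1 UMI. Trpv4 in fibroblast-like cells was lowest in the 22-month male library, at 3.31 CPM against 9.47 to 11.2 CPM in the other 4. Trpv2 in muscle-raised regions was highest in the second 22-month section, at 114 CPM against 81.5 to 81.8 CPM in the other 3.

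Clusters that were given no name also held members. In the nuclei library a cluster of 124 nuclei led by Egfl7, Ccl21a and Mmrn1, with marker genes of blood and lymphatic endothelium, had Piezo1 at 224 CPM (interval 146 to 328), the highest Piezo1 level of any cluster, and Piezo2 at 129 CPM (interval 72.2 to 213). In the second 12-month library a cluster of 66 cells with marker genes of plasma cells, dendritic cells and macrophages had Trpv2 at 44.0 CPM.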

How the results depend on the processing

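The count of called members stayed within 1.5 times its value in the bulk, class and region comparisons under each alternative run. Leaving out 1 library gave 3 to 4 members in bulk, 12 to 14 of 24 class tests (47 to 56 of 84 with the detrusor libraries) and 3 to 4 members in regions. A finer clustering (Leiden resolution 2) called 1 member between uroplakin-rich and uroplakin-poor cells, Trpv4 at -0.21 (adjusted p = 0.0426). There the count of all genes called, 137, ran from 2 to 2749 over the settings. By section age the count of 0 genes became 424 with DESeq2, 287 with no filter on low counts and 300 without the first 22-month section. A minimum of 1000 UMIs per cell moved Piezo2 and Trpv4 over all nuclei to 5.00 and 104.6 CPM, from 7.74 and 95.3. The same minimum turned the uncalled nuclei contrasts in fibroblast-like cells to -0.37 (Piezo2) and -7.17 (Trpv2). DESeq2 gave 1.69 and 1.61 for Piezo2 in dendritic-like and macrophage or monocyte-like against urothelial-like cells, where counts are at or near 0. Piezo1 by age turned to -0.06 (urothelial-like, without the first 12-month library), -0.09 and -0.07 (urothelial-like and fibroblast-like, without the sex term). By section age, Piezo2 turned to -0.07 and Trpv2 to 0.03 without the first 14-month section, and Trpv2 to 0.06 without the first 22-month section. Over all fits without 1 library, these ran from -0.06 to 0.19 (Piezo1 by age, urothelial-like), -0.07 to 0.19 (Piezo2 by section age) and -0.25 to 0.06 (Trpv2 by section age). None of these was called, and the cause was not tested. In bulk, a minimum log2 change of 1 left 2 members and 3636 genes.

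Bulk replicate numbers were not shown to pair libraries: deviations of same-numbered libraries correlated at 0.203, 0.344 and -0.0702. With the number as a replicate block, 4 members and 10011 genes were called, Trpv4 at 0.36 (adjusted p = 0.0279). The planned rules that ask for 2 or 3 times the urothelial list in a region were met by no region and were not run. Depth limits Piezo2 most, with 20 to 61 UMIs in 4 of the whole-bladder libraries and 8 in the other.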
